A study of Mus musculus with 22 samples.

Results

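The genes described here are 8 that move calcium out of astrocytes or supply the sodium gradient that drives its exit: the plasma membrane calcium pumps Atp2b1, Atp2b2 and Atp2b4, the sodium-calcium exchangers Slc8a1, Slc8a2 and Slc8a3, and the sodium pump beta subunits Atp1b1 and Atp1b3. They were taken by symbol from a table of 23453 gene symbols, and 7 of the 8 had a read in at least 5 of the 22 cells, as did 12719 symbols in all. Each library came from the RNA of 1 astrocyte of a primary culture of C57BL/6 mouse cortex, prepared from pups at postnatal day 0 to 1. Every culture had received cytosine arabinoside (10 µM for 12 h) after shaking, meant to clear other cells such as microglia, and had been kept without serum for 24 h, and every cell had been exposed briefly to ethanol (EtOH) at the highest dose the study used, with its intracellular calcium followed by the dye Fluo-4. ATP (100 µM) closed each recording as a reference signal. The cells were grouped by this calcium signal, with 6 S-type cells (a sustained rise), 6 T-type cells (a sharp, transient rise), 5 M-type cells (a mixed signal) and 5 NR cells (no response). No cell was without EtOH, so the levels describe cells sorted by their response and not an effect of EtOH. The labels name neither the animal nor the culture of a cell, so a type stands for 1 sample, and the types are compared without a test. Cells are named by their type and title.

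Resting cytosolic calcium is kept low by pumps that spend ATP and by exchangers that trade calcium for sodium. The plasma membrane calcium pumps bind calcium tightly and clear small rises, whereas the sodium-calcium exchangers have a high capacity and can run in reverse when sodium accumulates in the cell. The sodium pump sets the sodium gradient on which the exchangers depend, and its beta subunits carry the catalytic alpha subunit to the membrane. In astrocytes these transporters shape how long a calcium signal lasts.

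The promoters of 4 of these genes, from 250 bases before to 50 bases after the start annotated by RefSeq, are shown because their genes carry the comparisons that follow. Atp2b1 and Slc8a1 had lower mean levels in T-type than in S-type cells, and Atp1b1 and Atp1b3 had lower mean levels in S- and M-type than in NR cells. They are RefSeq sequences of GRCm38.p6, read 5′ to 3′ on the strand of the gene, and capitals mark GC boxes (GGGCGG) and CCAAT boxes (CCAAT) on either strand, which appear as CCGCCC and ATTGG on the opposite one.
Atp2b1, chr10:98914392-98914691, plus strand: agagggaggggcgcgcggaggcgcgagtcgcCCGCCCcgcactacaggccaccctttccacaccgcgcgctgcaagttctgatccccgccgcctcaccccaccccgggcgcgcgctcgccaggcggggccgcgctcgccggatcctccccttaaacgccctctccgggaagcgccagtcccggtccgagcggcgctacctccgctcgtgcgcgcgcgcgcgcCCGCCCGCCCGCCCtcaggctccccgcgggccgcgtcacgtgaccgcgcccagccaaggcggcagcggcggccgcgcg
Slc8a1, chr17:81738338-81738637, minus strand: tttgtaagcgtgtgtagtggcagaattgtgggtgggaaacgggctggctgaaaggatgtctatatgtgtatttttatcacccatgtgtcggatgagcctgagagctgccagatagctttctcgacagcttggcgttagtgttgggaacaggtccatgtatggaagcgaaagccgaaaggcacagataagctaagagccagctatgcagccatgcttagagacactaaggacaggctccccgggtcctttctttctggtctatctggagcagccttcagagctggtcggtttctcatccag
Atp1b1, chr1:164458306-164458605, minus strand: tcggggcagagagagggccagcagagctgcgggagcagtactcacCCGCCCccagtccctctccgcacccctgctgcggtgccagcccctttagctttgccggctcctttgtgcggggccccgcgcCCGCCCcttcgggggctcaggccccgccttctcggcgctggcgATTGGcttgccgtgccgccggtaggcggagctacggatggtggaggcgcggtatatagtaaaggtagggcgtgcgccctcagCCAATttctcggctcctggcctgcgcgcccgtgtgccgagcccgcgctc
Atp1b3, chr9:96364382-96364681, minus strand: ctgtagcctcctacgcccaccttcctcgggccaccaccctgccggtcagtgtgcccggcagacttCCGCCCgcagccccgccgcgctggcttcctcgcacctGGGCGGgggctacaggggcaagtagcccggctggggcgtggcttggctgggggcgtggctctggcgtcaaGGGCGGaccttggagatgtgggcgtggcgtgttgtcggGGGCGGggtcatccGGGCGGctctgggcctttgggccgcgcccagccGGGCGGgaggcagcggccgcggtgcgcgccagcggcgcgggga
The GC content of these windows was 79.3% for Atp2b1, 50.7% for Slc8a1, 71.0% for Atp1b1 and 76.0% for Atp1b3, beside a median of 52.7% over all promoter windows. Counting overlapping matches, the Atp2b1 window held 4 GC boxes, the Atp1b3 window 6, and the Atp1b1 window 2 together with 2 CCAAT boxes, while the Slc8a1 window held neither motif. A GC box occurred in 35.66% of the 32851 promoter windows and a CCAAT box in 37.41%. TATAAA, the TATA box, occurred in 13.62% of all windows and in none of the windows of the 8 genes. RefSeq gave Atp2b1 and Atp1b3 a second start each, whose windows are not shown. The start of Atp2b1 in GENCODE vM21 (98914406) lies near the upstream end of the window shown. Most of that window is therefore inside the GENCODE gene. These matches describe the letters only.

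Total counts lay between 2937786 and 22131076 reads per cell, with a median of 16965582. Counts were divided by size factors, medians of ratios over the 3670 genes that no cell lacked, which ran from 0.183 to 2.31 over all cells, and the result is called the normalized count. The 2 lowest factors belonged to the T-type cells J163_18 (0.183, also the smallest library) and J162_16 (0.276, in a library of 12564138 reads with the fewest genes detected, 6319), so counts per 1000000 reads (CPM) are given where this choice changes an order of cells. Levels of a type are means of the normalized counts of its cells, log2 ratios of these levels compare the types, and 95% intervals cover counting error only, since amplified reads are not independent molecules. The 10 astrocyte markers examined all had reads in every type, with median sums of 6535 CPM in NR, 3824 in S-type, 3161 in M-type and 2278 in T-type, whereas the 10 microglial markers had median sums of 16.8, 0.0351, 0.152 and 2.61 CPM in the same order. The 7 markers of mural cells and fibroblasts had median sums of 364 CPM in NR (211 to 1439), 1323 in S-type (176.5 to 7410), 1431 in M-type (31.7 to 2270) and 1668 in T-type (95.4 to 4710). Reads came from 4 to 6 markers a type, with Rgs5 at 0 in all. By mean over cells these sums were mostly Acta2, at 505 CPM in NR, 2089 in S-type, 1249 in M-type and 1969 in T-type. Pdgfrb was highest in NR (31.8 CPM). Col1a2 was at 74.0 in NR, 50.5 in S-type, 6.96 in M-type and 138 in T-type. Col1a1, Dcn and Lum reached at most 3.724 in any type. The part of these reads in the ratios to NR was not tested. Whether fewer RNA molecules in a cell or weaker recovery set a low count cannot be told apart here.

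Per kilobase of exon, the scale used to set genes side by side, the beta subunits stood above the calcium transporters. The RNA was amplified in 2 rounds, which can shorten transcripts and favour their 3′ ends, so dividing by the whole exon length is approximate, and per gene the mean normalized counts were 11575 for Atp1b1 and 3521 for Atp2b1. Over the 22 cells the mean normalized count per kilobase was 4507 for Atp1b3 and 3757 for Atp1b1. It was 231 for Atp2b1, 80.7 for Atp2b4 and 30.1 for Slc8a1. Slc8a3 (1.498), Slc8a2 (0.941) and Atp2b2 (0.0695) were scarcely read. By type level, the order Atp1b3, Atp1b1, Atp2b1, Atp2b4, Slc8a1 was the same in all 4 types.

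**Figure D1:**
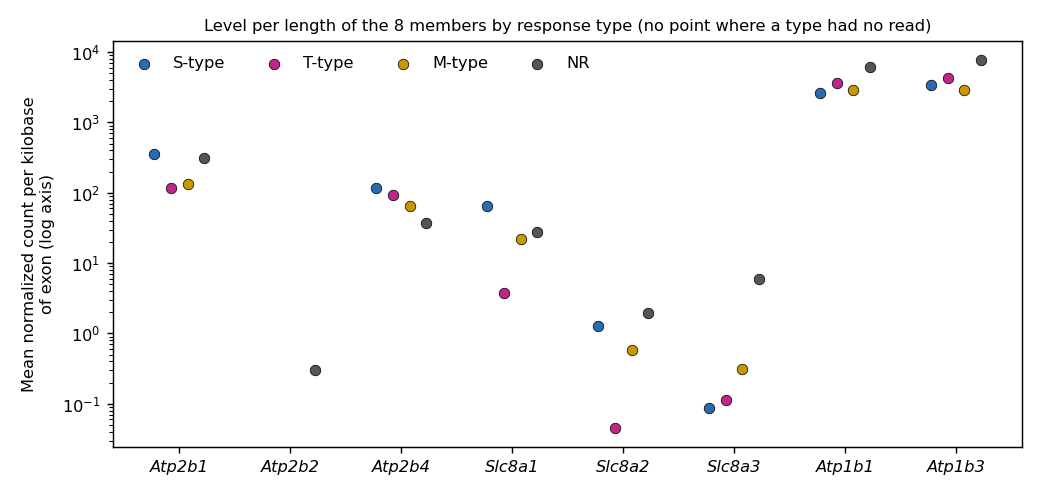
Mean normalized count per kilobase of exon (log axis) for the 8 genes, with 1 point per response type. Atp1b1 and Atp1b3 lie at 2656 or above in every type, Slc8a2 and Slc8a3 lie at or below 6.04, and Atp2b2 has a point in NR only.

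Atp2b1, the calcium pump found in most cell types (gene on chromosome 10, 98914406 to 99026143, plus strand, GRCm38, GENCODE vM21), had the level order S-type, NR, M-type, T-type. In S-type the lowest, median and highest normalized counts were 2522, 4270 and 12103, and in T-type they were 12.8, 1386 and 5636. The M-type cells were at 1517, 1922, 1984, 2186 and 2579, and the NR cells at 1709, 2751, 2918, 4062 and 12570. The M-type cells were the most alike, within 1.70-fold of each other, whereas the T-type cells spanned 441-fold because J164_19 had only 7 reads of Atp2b1. Neighbours in the order overlapped throughout: J187_6 alone made up 52.4% of the NR level, and J162_16 alone 52.0% of the T-type level.

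The T-type level of Atp2b1 was 1806, against 5405 in S-type, a log2 ratio of -1.58 (95% interval -1.62 to -1.54). Without 1 cell at a time this ratio lay between -2.38 (without J162_16) and -1.17 (without J150_3), so it stayed below -1 whichever single cell was left out. By normalized count 5 of the 6 T-type cells were below all S-type cells, and the exception was J162_16. In CPM, which does not use the size factors, J162_16 came to 124 and was still the highest T-type cell, but every S-type cell was above it, from 255 to 849 CPM, and so was every NR cell, from 152 to 767 CPM. The T-type cells therefore did not overlap with S-type or NR cells in CPM, as was the case for 0.895% of all genes compared with S-type and 1.10% of those compared with NR, and Atp2b1 was the only one of the 8 genes among them in either comparison. Under mean CPM the median log2 ratio of all genes between T- and S-type was -0.46, compared with -0.09 by normalized count, and the ratio of Atp2b1 was -2.49. Against NR the median of all genes in T-type likewise moved from -0.07 to -0.46, and the ratio of Atp2b1 was -2.23 under mean CPM.

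The log2 ratio of Atp2b1 to NR was -1.41 for T-type, -1.24 for M-type and 0.17 for S-type. The T- and M-type ratios shrank to -0.66 and -0.49 without the NR cell J187_6. The S-type ratio ran from -0.24 without J150_3 to 0.92 without J187_6, so S-type and NR have no firm order. It was -0.26 without J150_3 and J151_5, the S-type cells richest in S phase and G2/M reads, whose part was not tested. J186_5, the lowest NR cell, was the only NR cell within the range of the M-type cells. Of the NR cells, J186_5 had the fewest astrocyte marker reads (1202 CPM, in a range up to 8485) and the most microglial marker reads (51.3 CPM, in a range down to 0.735). J183_1 had nearly as many microglial marker reads (50.3 CPM) together with the most astrocyte marker reads (8485 CPM). In NR 9 of the 10 microglial markers had a read, P2ry12 being the one at 0, and the part of these reads in the count of Atp2b1 was not tested.

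**Figure D2:**
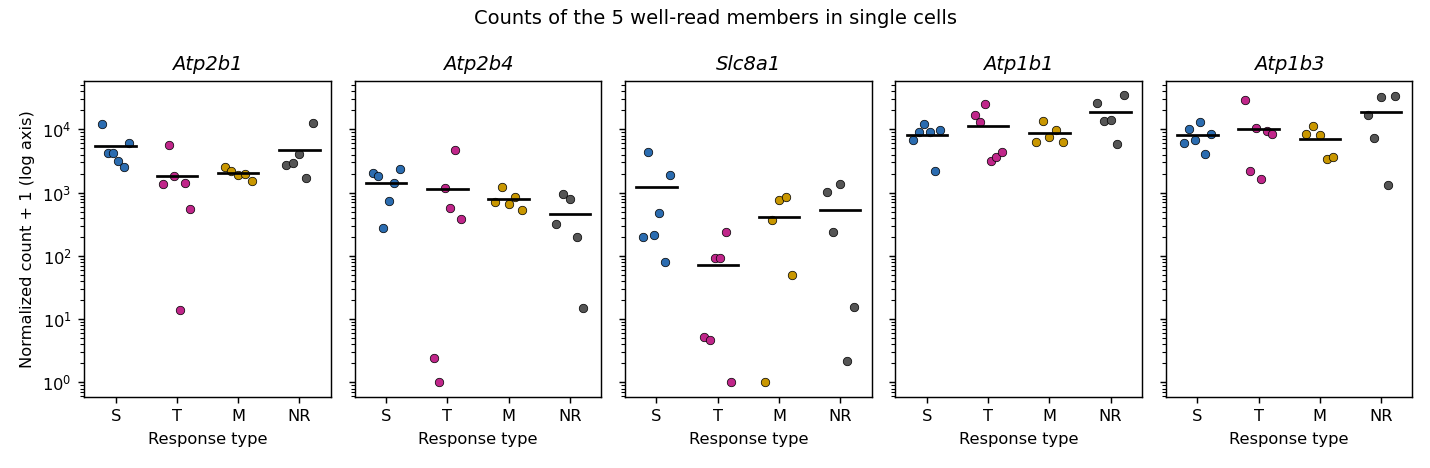
Normalized count plus 1 (log axis) of Atp2b1, Atp2b4, Slc8a1, Atp1b1 and Atp1b3 in each of the 22 cells, with cells of a type side by side and the type level as a bar. The T-type column of Atp2b1 lies below the S-type column apart from J162_16 at 5636, and the Slc8a1 columns of T-type and NR reach down to 0 and 1.20 normalized counts.

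Atp2b4, a calcium pump that is also bound to caveolae and signalling scaffolds (chromosome 1, 133699457 to 133801041, minus strand), showed the order S-type, T-type, M-type, NR. S-type cells had a lowest, median and highest normalized count of 271, 1625 and 2335, and T-type cells of 0, 472 and 4683. The M-type cells were at 534, 666, 723, 845 and 1234. The NR cells were at 13.9, 195, 324, 801 and 940. J153_6 and J154_8 were the low S-type cells, J187_6 was the low NR cell, and the M-type cells again lay close together, within 2.31-fold. The T-type cells were the most unlike each other, since J162_16 had no read, J161_9 had 1 read and J165_23 supplied 68.9% of the type's level.

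The S-type level of Atp2b4 was 1443 and the NR level 455, a log2 ratio of 1.67 (95% interval 1.61 to 1.72) that kept between 1.35 and 2.11 when single cells were left out, and 4 of the 6 S-type cells exceeded all NR cells. M-type was higher than NR by 0.81 on the log2 scale, with a range of 0.50 to 1.26. T-type was higher than NR by 1.32, but without J165_23 the value was -0.10. J165_23 also had the most S phase reads (6464 CPM for 14 genes) and G2/M reads (998 CPM for 12 genes) of the T-type cells. Its sum of 6 endothelial markers, 200 CPM, was the highest of all cells. By mean over T-type cells the endothelial sum was mostly Kdr (35.8 CPM), with Cldn5 and Cdh5 at 0. The part of these reads was not tested. Between T- and S-type the log2 ratio of Atp2b4 was -0.35, which became -1.77 without J165_23 and -1.78 with medians over cells.

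The balance between Atp2b1 and Atp2b4 differed among the types. Atp2b1 took 89.6% of the calcium pump reads in NR (95% exact binomial interval 89.3 to 89.9), 79.4% in S-type (79.1 to 79.8), 72.2% in M-type (71.6 to 72.7) and 41.5% in T-type (40.7 to 42.3). Within T-type the share ran from 2.20% in J164_19 to 100% in J162_16, with a median of 60.5% and a mean over cells of 57.7%, and the pooled figure leaned on J165_23, which held 7227 of the 8342 Atp2b4 reads of the type. In the other types no cell had an Atp2b1 share below 63.9%. Per kilobase of exon the share was 87.4% in NR, 75.7% in S-type, 67.6% in M-type and 36.4% in T-type. Atp2b2, the pump best known from neurons and the hair cells of the inner ear, had 34 reads, all in the NR cell J183_1. With the other types set to a floor of 3 reads over their cells, Atp2b2 was at least 12.1-fold lower in M-type than in NR, at least 9.58-fold in S-type and at least 6.20-fold in T-type, bounds that rest on 1 cell.

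**Figure D3:**
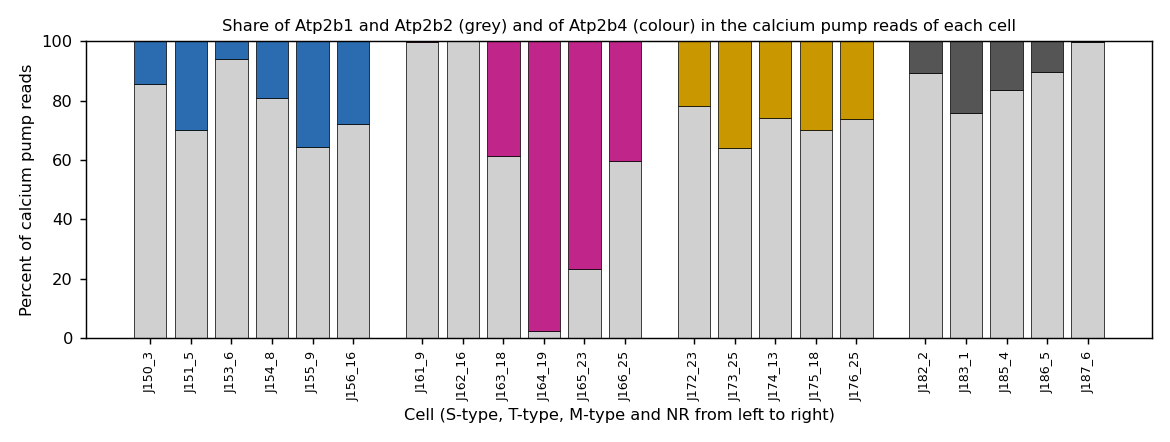
Percent of the reads of Atp2b1, Atp2b2 and Atp2b4 that came from Atp2b4 (coloured by response type) or from the other pumps (grey) in each cell. The M-type bars are alike, with 21.9% to 36.1% for Atp2b4, while the T-type bars run from 0% to 97.8%.

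Slc8a1, the exchanger known from heart muscle and also present in glia (chromosome 17, 81373105 to 81738377, minus strand), carried nearly all exchanger reads. Its share was 99.3% in both S- and T-type and 99.0% in M-type, and it was 91.6% in NR, where J183_1 supplied 280 of 283 reads of Slc8a3. The level order of Slc8a1 was S-type, NR, M-type, T-type, the same as for Atp2b1.

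Slc8a1 varied more between the cells of a type than Atp2b1 did. Its lowest, median and highest normalized counts were 80.0, 347 and 4469 in S-type and 0, 48.5 and 237 in T-type. M-type cells were at 0, 49.3, 366, 757 and 867. NR cells were at 1.20, 14.8, 234, 1032 and 1357. Every type other than S-type held a cell with at most 2 reads, so the types overlapped, and J151_5 alone made up 60.7% of the S-type level.

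Between T- and S-type the levels of Slc8a1 were 71.7 and 1227, a log2 ratio of -4.10 (95% interval -4.24 to -3.96). The ratio was -3.01 without J151_5, the S-type cell with the most S phase reads (6682 CPM), the most neuronal marker reads (2076 CPM) and the fewest astrocyte marker reads (1360 CPM). By mean over S-type cells the neuronal sum was mostly Stmn2 (509 CPM), with Map2 at 88.8 and Tubb3 at 10.3. Snap25, Syt1 and Gad1 were at most 0.0794 there, and Rbfox3, Dcx and Slc17a7 were at 0. The ratio was -3.23 without J151_5 and J150_3, the S-type cell with the most G2/M reads (7771 CPM). The part of these reads was not tested. With medians over cells in place of means the ratio was -2.84, and under the other settings examined it stayed below -3. The highest T-type cell, J165_23, was above 3 of the 6 S-type cells, and 3 of the 6 T-type cells were below all S-type cells. In CPM 5 of the 6 T-type cells were below all S-type cells, J163_18 (5.79) and J164_19 (7.76) coming to lie just under the S-type cell J155_9 (8.10). Against NR the log2 ratio of Slc8a1 was -2.88 in T-type, with a range of -3.77 to -2.16 when single cells were left out. It was 1.22 in S-type and -0.37 in M-type, and the S-type value came down to 0.13 without J151_5.

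Slc8a2 and Slc8a3, exchangers known chiefly from neurons and muscle, were near the limit of detection. Slc8a2 (chromosome 7, 16129826 to 16161063, plus strand) had reads in 8 of 22 cells: 55 in 1 S-type cell, 1 in 1 T-type cell, 28 in 3 M-type cells and 87 in 3 NR cells. Slc8a3 (chromosome 12, 81197915 to 81333180, minus strand) had 3, 2, 12 and 283 reads in S-, T-, M-type and NR. The log2 ratios of Slc8a3 against NR were -4.26 in M-type, -5.73 (95% interval -8.78 to -3.86) in T-type and -6.14 (-8.42 to -4.58) in S-type, and they rest on J183_1, which gave 98.7% of the NR level. Without that cell the M-type ratio was 1.64. The ratios of Slc8a2 were -0.60 in S-type, -1.77 in M-type and -5.46 (-10.78 to -2.94) in T-type. For Slc8a2, J183_1 gave 57.2% of the NR level, and the S-type level came from J156_16 alone. J183_1 also held all reads of Atp2b2 and had the most genes detected of all cells (13070). Its microglial marker sum was 50.3 CPM. J186_5, with a microglial marker sum of 51.3 CPM, had no read of Atp2b2, Slc8a2 or Slc8a3. The part of microglial reads or of detection in these counts was not tested.

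Atp1b1, the widely expressed beta subunit (chromosome 1, 164437109 to 164458355, minus strand), was read in every cell and had the level order NR, T-type, M-type, S-type. Its S-type cells had a lowest, median and highest normalized count of 2181, 9103 and 12249, and its T-type cells of 3141, 8818 and 25636. The M-type cells were at 6389, 6435, 7622, 9709 and 13789, and the NR cells at 5953, 13711, 14069, 26466 and 34506. In NR, 4 of 5 cells were above every S-type cell, and the exception was J186_5. Of the exon bases of Atp1b1, 18.66% overlap exons of Nme7 on the other strand, and whether the counting used the strand is not given in the sources used here.

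Atp1b3, a beta subunit also found in glia (chromosome 9, 96332655 to 96364442, minus strand), had the order NR, T-type, S-type, M-type. Its lowest, median and highest normalized counts were 4133, 7554 and 13120 in S-type and 1616, 9008 and 28672 in T-type. The M-type cells were at 3439, 3604, 8186, 8399 and 11162. The NR cells were at 1303, 7243, 16935, 32886 and 34219. By normalized count NR contained both the lowest cell of the series, J186_5, and the 2 highest, J185_4 and J187_6, and it overlapped with every other type. In CPM the 2 highest cells were also J185_4 (3037) and J187_6 (2088), but the lowest was the T-type cell J162_16 (48.1), below J186_5 (116).

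The levels of the beta subunits in S-type were less than those in NR by nearly the same factor. Atp1b1 stood at 8182 against 18941, a log2 ratio of -1.21 (95% interval -1.22 to -1.20), and Atp1b3 at 8085 against 18517, a ratio of -1.20 (-1.21 to -1.18). In M-type the log2 ratios to NR were -1.11 for Atp1b1 and -1.41 for Atp1b3. Leaving out J187_6 moved the S-type ratios to -0.88 and -0.85 and the M-type ratios to -0.78 and -1.07. In T-type they were -0.76 and -0.87, under 2-fold, but with mean CPM they were -1.32 and -1.27 and with pooled CPM -1.70 and -1.02, and Atp1b3 was at -1.52 without J161_9 and Atp1b1 at -1.20 without J163_18. All of these kept their sign in every setting examined. Between T- and S-type the log2 ratios were 0.45 and 0.33, but with mean CPM they were -0.21 and -0.17, so no direction is given.

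**Figure D4:**
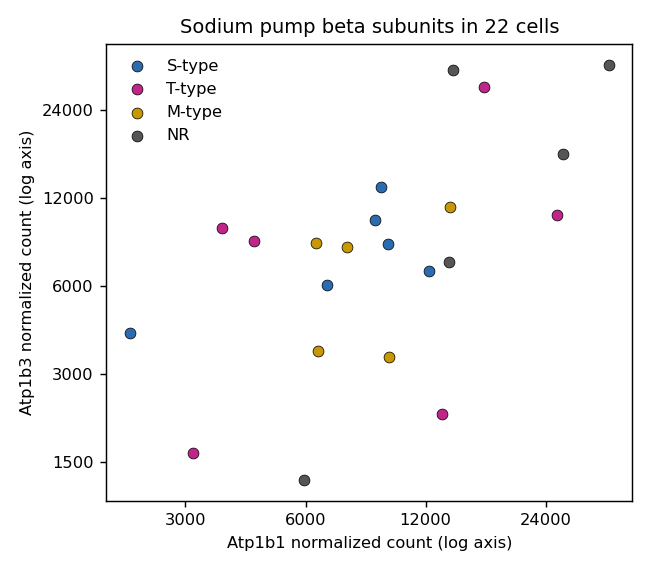
Normalized counts of Atp1b1 (horizontal) and Atp1b3 (vertical), both on log axes, in 22 cells coloured by response type. The NR cells J182_2, J185_4 and J187_6 lie in the upper right, with J187_6 at 34506 and 34219. The T-type cell J161_9 lies among them at 16789 and 28672. The NR cell J186_5 lies at the bottom with 1303 for Atp1b3.

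Atp1b1 and Atp1b3 were also the pair of genes whose counts ran most closely together over the 22 cells, with a Spearman correlation of 0.60, a description only because the cells share types and libraries of different depth. Atp2b4 and Slc8a1 followed with 0.54, Atp2b1 and Atp1b1 with 0.41, and the lowest was -0.26 for Atp2b4 and Atp1b1. The Atp1b1 share of the reads of these 2 beta subunits was 56.3% in M-type, 51.7% in NR, 51.5% in S-type and 40.1% in T-type when reads were pooled. As a mean over cells it was 56.9%, 57.7%, 49.0% and 53.7% in the same order, so the low T-type share rests on pooling, and in single cells it ran from 28.1% to 85.7%. Among 10493 genes compared, the counts most like Atp2b1 were those of Ddhd2 (0.72) and Dbnl (0.69), and those most like Slc8a1 were Adnp2 (0.87) and Nhlrc2 (0.83). For Atp2b4 they were Cntln (0.85) and Prim2 (0.82), the latter a subunit of the DNA primase. For Atp1b1 they were Syt11 (0.82) and Cpe (0.79), and for Atp1b3 Col4a6 (0.81) and Atp6ap2 (0.79). These places depend on the measure, since by Pearson correlation of log2 counts Cntln came to place 25 and Ddhd2 to 19, and Prim2 lay further down than either.

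Detection of the 8 genes was counted over pairs of gene and cell. A read was present in 30 of 48 T-type pairs, 28 of 40 M-type pairs, 34 of 48 S-type pairs and 31 of 40 NR pairs. With every cell brought to the depth of the smallest library 26.8, 26.6, 31.7 and 29.4 pairs were expected, in the same order. The reads of the 8 genes made up between 0.0454% and 0.245% of a T-type library and between 0.0813% and 0.496% of an NR library.

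For T-type versus S-type, 6 of the 8 genes could be compared. None stood at least 2-fold higher in T-type (25.7% of all genes were), 3 were at least 2-fold lower (32.5% of all genes), namely Atp2b1, Slc8a1 and Slc8a2 (for Slc8a2 1 read against 55, a log2 ratio of -4.86 with a 95% interval of -10.19 to -2.32), and none had cells that did not overlap by normalized count (0.783%). Their median log2 ratio was -0.97, where that of all 12517 genes was -0.09. Without the T-type cells J162_16 and J163_18 the count of lower genes was also 3. The cells of Atp2b1 then did not overlap, but this removal takes out J162_16, the only T-type cell in the S-type range. The share of all genes without overlap was not counted after it.

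For T-type versus NR, 7 could be compared. Atp2b4 stood at least 2-fold higher in T-type (28.4% of all genes), Atp2b1, Slc8a1, Slc8a2 and Slc8a3 were at least 2-fold lower (32.8%), and none was free of overlap (1.01%). The median was -1.41 beside -0.07 over all genes.

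For S-type versus NR, Atp2b4 and Slc8a1 were at least 2-fold higher (25.1% of all genes) and Slc8a3, Atp1b1 and Atp1b3 at least 2-fold lower (22.5%), of 7 compared. None was free of overlap (0.412%). The median log2 ratio was -0.60, beside 0.03.

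For M-type versus NR, none of 7 was at least 2-fold higher (19.8% of all genes), and Atp2b1, Slc8a2, Slc8a3, Atp1b1 and Atp1b3 were at least 2-fold lower (28.1%). None was free of overlap (0.602%), and the median was -1.24, beside -0.20. All 3 comparisons with NR share the same 5 NR cells.

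**Figure D5:**
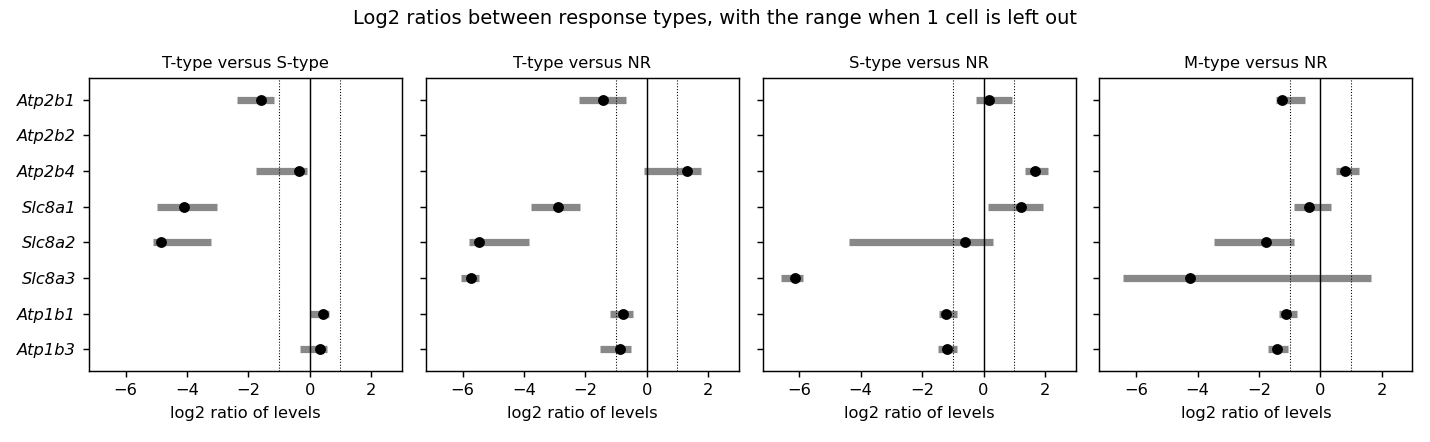
Log2 ratios of type levels for the 8 genes in the 4 comparisons, with points for the value from all cells, grey bars for the range when single cells are left out, and dotted lines at 2-fold. Slc8a1 stays between -4.99 and -3.01 for T-type versus S-type, whereas the bar of Slc8a3 for M-type versus NR runs from -6.42 to 1.64. Atp2b2 has no ratio.

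Of 32 genes that work beside these transporters, among them the other sodium pump subunits, potassium-dependent exchangers and FXYD regulators, 22 could be compared. In T-type, 6 were at least 2-fold higher and 5 lower than in S-type (25.7% and 32.5% of all genes). Against NR, T-type had 5 higher and 8 lower (28.4% and 32.8% of all genes). Relative to NR, S-type had 3 higher and 7 lower (25.1% and 22.5%) and M-type 4 higher and 7 lower (19.8% and 28.1%). The median log2 ratio of these genes was -0.25 for T-type against S-type, beside -0.09 over all genes. Against NR it was -0.19, -0.37 and -0.34 for T-, S- and M-type, beside -0.07, 0.03 and -0.20 over all genes. Atp1b2, the beta subunit typical of astrocytes, had a log2 ratio of -2.50 in M-type relative to NR, which kept between -2.92 and -2.18. Fxyd6, a regulator of the sodium pump, had a ratio of -2.26 there, or -1.08 without J187_6. Slc12a2, a cotransporter that brings sodium into the cell, had -2.38 in T-type and -1.31 in S-type, or -1.13 and -0.058 without J187_6. Ank2, an anchor of the exchanger and the sodium pump, had -2.28 in T-type relative to NR, whereas the T- to S-type ratio of Ank3, -1.24, and the S-type to NR ratio of Cav1, 1.37, each turned when 1 cell was left out. Slc24a5, an exchanger of pigment cell organelles, had log2 ratios to NR of 11.06 in T-type, 8.92 in S-type and 4.48 in M-type, but 39.53% of its exon bases overlap Myef2 on the other strand, and J162_16 gave 91.9% of its T-type level.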

How the data were processed

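RNA of 22 single astrocytes was amplified in 2 rounds as antisense RNA, made into stranded libraries and sequenced. The authors deposited raw counts per gene symbol and cell, the uniquely aligned exonic reads after alignment to GRCm38 with STAR; the study's methods name VERSE for counting, the submitters' processing notes HTSeq, without versions. Counts per 1000000 reads (CPM) were computed from them.

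Normalization used median-of-ratios size factors (NumPy 2.4.6, pandas 2.3.3, Python 3.11.15). Genes read in at least 5 cells were compared, a level of 0 was set to a floor of 3 reads over the type, and genes with at most 3 reads in both types got no ratio. Intervals are exact (Clopper-Pearson, 95%, SciPy 1.17.1). No animal is named per cell, so no test was run. The genes and lists were chosen with earlier results of these data known. Named were the 8 genes, the 2 genes most alike to each by Spearman correlation, and of the 32 related genes at most 4 per comparison, by size, at a level of at least 100; some genes that this selects are left out. Alternatives were CPM, TMM factors (edgeR 4.0.16, R 4.3.3), medians, a pseudocount of 1, other filters and leaving out cells. All 8 genes matched GENCODE vM21 and RefSeq promoters. Steps were tested on simulated data. The time between EtOH and collection of each cell was not used here.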

Additional observations from a re-analysis of the deposited data

Results flagged for a closer look

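Atp1b1 in the S-type cell J155_9 was at 2181 normalized counts, far below the other 5 S-type cells, and Dixon's test within the type marked this gap on the scale of log2 of the normalized count plus 1. It was the only one of 23 combinations of gene and type that was marked, and chance alone marks about 1 in 20. The same cell also had the lowest S-type counts of Atp2b1, Slc8a1 and Atp1b3. Its mural and fibroblast marker sum, 7410 CPM, was the highest of all cells, though in S-type such sums were mostly Acta2 (mean 2089 CPM). Its astrocyte marker sum was 1425 CPM, near the lowest S-type value of 1360. The part of these reads was not tested.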

How the results depend on the processing

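No paired analysis was possible because the labels give the types no shared replicate number and no test was run. Of 193 values obtained by leaving out 1 cell from a member's ratio of at least 2-fold, 191 kept their direction and 180 stayed at least 2-fold. Atp2b4 in T-type versus NR turned to -0.10 without J165_23 (highest 1.77), and Slc8a3 in M-type versus NR to 1.64 without J183_1 (lowest -6.42). Under the other settings 131 of 131 such values kept their direction and 121 stayed at least 2-fold. Of the values from ratios under 2-fold, 6 of 100 turned with a cell left out and 7 of 71 under other settings. In both counts of other settings, those with no filter and with a level of at least 10 only choose genes. They leave each ratio unchanged, so their values could not turn. A pseudocount of 1 only shrinks a ratio, so its values could not turn either. With medians over cells, a ratio with a type median of 0 had no value and was not counted. Of the related genes, log2 ratios turned for T-type versus S-type in Slc24a5 (-1.22 to 3.26 over the cells left out) and Ank3 (-4.28 to 2.89), and for S-type versus NR in Cav1 (-0.17 to 1.97). The median of the members for T-type versus S-type was -1.57 with pooled CPM, -1.45 with mean CPM, -1.02 with TMM, -1.62 with medians over cells, -0.35 at a level of at least 10, -1.46 without J162_16 and J163_18 and -0.61 without J150_3 and J151_5. For T-type versus NR these were, in the same order up to the T-type cells left out, -2.17, -2.23, -1.76, -0.91, -0.87 and -2.52, and -2.02 with no filter. The median of all genes moved as well. For T-type versus S-type it was -0.56 with pooled CPM, -0.46 with mean CPM and -0.08 with TMM. With medians over cells it was -0.69, and at a level of at least 10 it was -0.04. For T-type versus NR the all-gene medians were, in that order, -0.54, -0.46, -0.16, -0.52 and -0.02, and -0.15 with no filter. Mean CPM and leaving out those T-type cells each gave 1 member without overlap in both comparisons. Medians over cells gave 0 higher and 2 lower members for T-type versus NR, and a level of at least 10 gave 2 lower. In both settings Slc8a2 and Slc8a3 had no value there, so they could not be counted as lower. By contrast 6 were lower with pooled or mean CPM, and 5 with TMM, no filter or without J162_16 and J163_18. For S-type versus NR, 1 member was higher with mean CPM, medians over cells or without J150_3 and J151_5, 1 was lower with medians over cells, and the median was 0.55 with medians over cells and 0.17 at a level of at least 10. For M-type versus NR, 3 were lower with pooled CPM or a level of at least 10, and 2 lower and 1 higher with medians over cells, with medians of -0.98 (pooled CPM), -1.001 (mean CPM), -0.72 (medians over cells), -1.32 (no filter) and -1.11 (level of at least 10). The all-gene medians there were, in the same order, -0.09, -0.10, -0.03, -0.23 and -0.18. The shares of all genes at least 2-fold apart were counted with the main setting only. Without single cells the T- to S-type median ran from -1.64 to -0.16, and the medians against NR from -2.21 to -0.66 (T-type), -1.20 to 0.17 (S-type) and -1.45 to -0.78 (M-type). Higher members ranged from 0 to 1 for T-type, 1 to 2 for S-type and 0 to 2 for M-type versus NR, and lower members from 1 to 4 for S-type and 3 to 5 for M-type versus NR. Members without overlap numbered 0 to 1 in the T- to S-type comparison and in those of S- and M-type with NR. Each became free of overlap only when the cell that overlapped was itself left out. The share of all genes was not counted after such removals. At a level of at least 10, Slc8a2 and Slc8a3 gave no value, and Atp2b2 gave one with no filter only. With medians over cells, Slc8a3 gave no value in any comparison and Slc8a2 gave one for M-type versus NR only. The cause of these shifts was not tested. Depth limits Atp2b2, which had reads in 1 cell, and Slc8a2 and Slc8a3, with 1 and 2 reads in T-type.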
